A study of Mus musculus with 6 samples.

Results

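The nuclear genes that encode subunits of the mitochondrial respiratory chain and of ATP synthase were examined in neuromesodermal progenitors (NMPs), the caudal progenitors from which spinal cord as well as presomitic mesoderm are formed. The genes were chosen by symbol alone (Nduf followed by a, b, c, s or v and a number, Uqcr, Cox4 to Cox8, Atp5, and Sdha to Sdhd), which gave 83 of the 20631 genes in the files. Of these, 37 belong to complex I, 4 to complex II, 8 to complex III, 17 to complex IV and 17 to complex V. All samples were NMPs derived over 3 days in culture from mouse embryonic stem cells (ESCs), first with bFGF and then with bFGF plus CHIR99021, an agonist of WNT signaling. Both bFGF and CHIR99021 were then removed in all samples. The cells were kept for 2 h with 25 nM retinoic acid (RA), with 1 µM RA or with DMSO, the vehicle, in 2 samples per condition. The medium was otherwise free of retinoids. The labels give the strain as 129 R1 and the methods give the ESCs as C57BL/6, a difference that was not resolved. The labels give the cells as a source and not by sorting, so that each sample is a culture and not a purified population. The duplicates were separate dishes, called technical replicates in the methods, and p-values therefore measure the spread between dishes. Total RNA depleted of ribosomal RNA was sequenced, and an estimated read count and an RPKM value (reads scaled by transcript length and sequencing depth) were available for every transcript. Both were summed per gene, and the estimated counts of a sample added up to between 31753556 and 42029348.

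Oxidative phosphorylation takes electrons from NADH at complex I and from succinate at complex II, passes them through ubiquinone to complex III and through cytochrome c to complex IV, where oxygen is reduced, and the proton gradient that complexes I, III and IV build drives ATP synthase, complex V. Most subunits are encoded in the nucleus, translated in the cytosol and imported, and are assembled with a smaller set encoded in mitochondrial DNA. Pluripotent and early progenitor cells are known to rely strongly on glycolysis, and several subunits of complex IV have paralogues that are used in muscle, lung or testis. The mitochondrially encoded subunits were not analysed here.

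The cultures carried the genes used to check their identity. In the DMSO samples the NMP genes T and Nkx1-2 were at a mean of 375 and 39.1 RPKM, Sox2 at 5.20 RPKM, and the neural genes Sox1 and Pax6 at 0.237 and 0.0524 RPKM. The pluripotency gene Pou5f1 was at 445 RPKM and makes up most of the pluripotency sum given below. Nanog was at 19.3 RPKM and Zfp42 at 5.11, whereas Klf4 and Esrrb were under 1 RPKM. The RA response genes Cyp26a1, Rarb and Dhrs3 were called higher at both doses, by between 1.76 and 4.91 on the log2 scale under 25 nM RA and between 2.40 and 5.57 under 1 µM RA. Markers of other cell types moved with dose: the summed level of 3 endoderm genes (Sox17, Foxa2, Gata6) was 30.5 and 30.6 RPKM in DMSO, 24.1 and 23.7 under 25 nM RA and 21.7 and 21.8 under 1 µM RA, and all 3 were called lower at both doses. The 3 presomitic mesoderm genes summed to 36.1 and 36.1 RPKM in DMSO, 27.9 and 25.2 under 25 nM RA and 20.4 and 22.3 under 1 µM RA, with Tbx6 and Msgn1 lower and Meox1 higher, while the 5 pluripotency genes held between 459 and 495 RPKM in the 6 samples with none called. Of the 7 NMP genes, 4 were called higher and 1, Fgf8, lower at each dose, and the neural genes summed to between 0.254 and 0.302 RPKM. No marker was at 0 in any sample. The part of these shifts in the results was not tested, and in bulk samples fewer cells of a type and less RNA per cell cannot be told apart.

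Most of the subunit genes were expressed at high levels before any treatment. In DMSO, 72 of the 83 genes had a mean of at least 40 RPKM, compared with 8.10% of all 20631 genes. The duplicates were close for these 72 genes, with a median SD of 2.35% of the mean in DMSO, 2.24% under 25 nM RA and 3.02% under 1 µM RA. Together the 83 genes took 1.146% and 1.173% of the estimated counts of the DMSO samples, 1.187% and 1.167% under 25 nM RA, and 1.186% and 1.216% under 1 µM RA. The mean share was thus 1.16% ± 0.0195 (SD, n = 2) in DMSO, 1.18% ± 0.0145 under 25 nM RA and 1.20% ± 0.0210 under 1 µM RA, and both samples with 1 µM RA lay above both DMSO samples. Between dishes of the same condition, replicate 2 was above replicate 1 in RPKM for 50 of the 72 genes in DMSO. This held for 51 of 72 with 1 µM RA, but for 15 of 72 with 25 nM RA. No share of all genes stands beside these counts, so that a shift common to all genes cannot be told apart. The genes are short, with a median transcript length of 649 bases for the 72 compared with 2816 bases for all genes tested, and across the 72 genes RPKM was nearly unrelated to length (Spearman's rho -0.127, a description over genes of the same libraries).

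**Figure D1:**
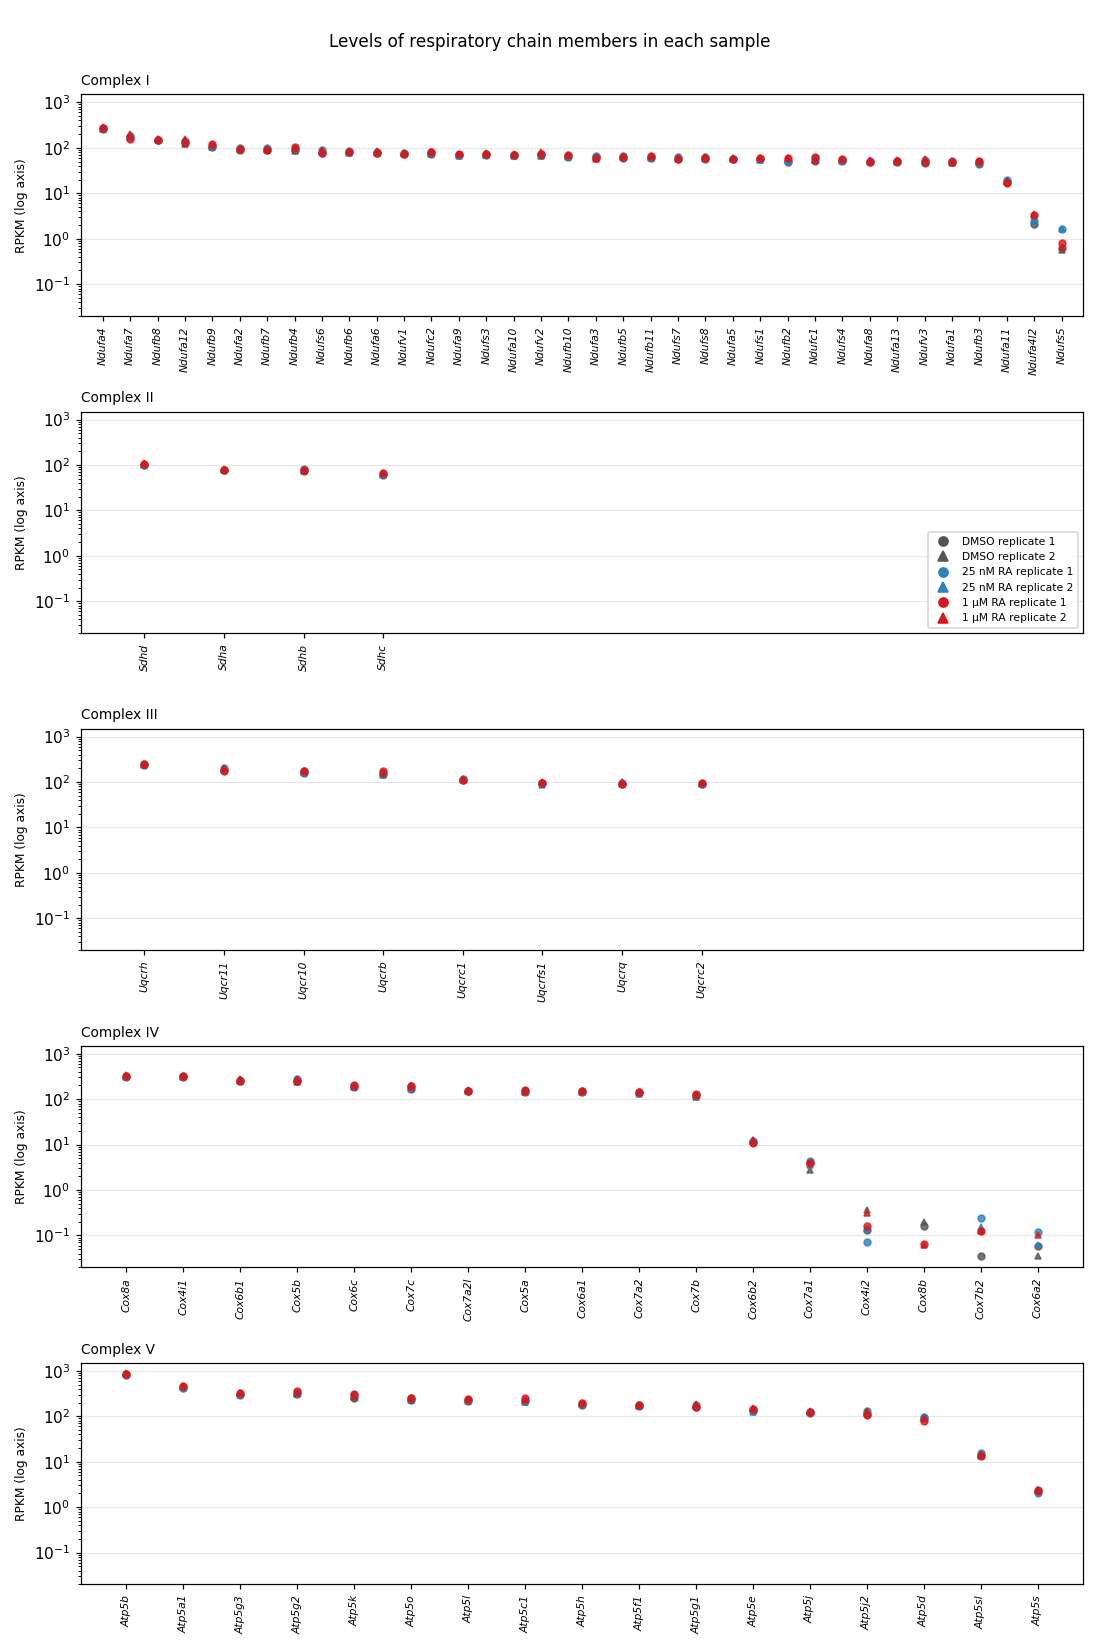
RPKM (log axis) of the genes in the 6 samples, 1 panel per complex, with genes ordered by their mean in DMSO and samples at 0 not drawn. Within every complex most genes lie close together and the 6 samples of a gene nearly coincide, while Ndufs5, Ndufa4l2 and several complex IV and V genes lie far lower.

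Typical levels differed between complexes. The median over the tested genes of a complex, in DMSO, was 63.5 RPKM for complex I, 75.9 for complex II, 129 for complex III, 150 for complex IV and 181 for complex V. Complex V, with 17 genes, took 0.550% ± 0.00955 (SD, n = 2) of the estimated counts in DMSO, and complex I, with 37 genes, 0.269% ± 0.00460. Complexes III and IV took 0.108% ± 0.00230 and 0.171% ± 0.00310, and complex II, the 4 subunits of succinate dehydrogenase, 0.0614% ± 0.000106. For each of the 5 complexes the mean share was highest at 1 µM RA. In complexes II, IV and V both samples with 1 µM RA lay above the other 4. In complex I the 1 µM RA sample of replicate 1, at 0.273%, lay above both DMSO samples but below the 25 nM RA sample of replicate 1, at 0.278%. In complex III the same sample, at 0.1100%, lay below the DMSO sample of replicate 2, at 0.1101%, and the 25 nM RA sample of replicate 1, at 0.1110%, so that 1 µM RA overlapped with both groups.

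**Figure D2:**
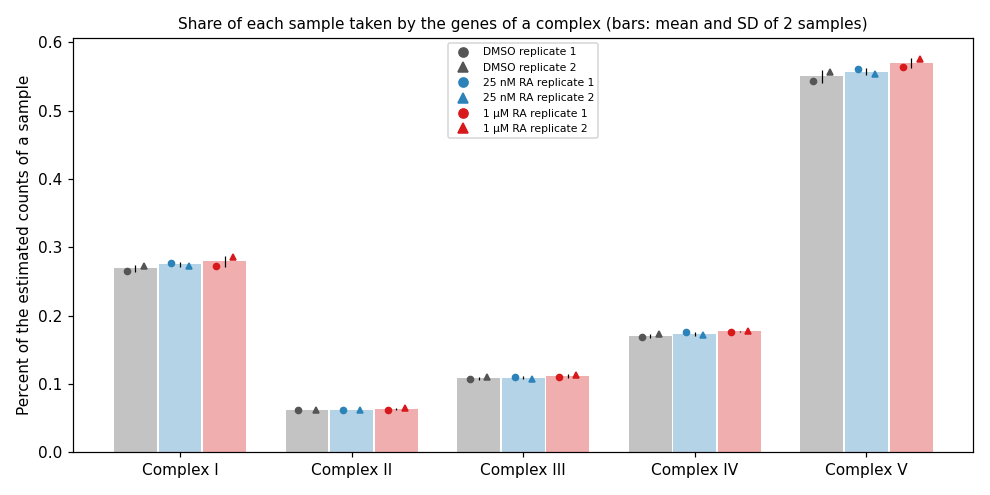
Percent of the estimated counts of a sample taken by the genes of each complex, with bars for the mean and SD of 2 samples and a point for each sample. Complex V takes a little less than the other complexes together, and the differences between conditions are small beside those between complexes.

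In complex V the highest levels were those of the catalytic head. Atp5b, the beta subunit that carries the catalytic sites, was at 830.0 and 850.3 RPKM in DMSO, 858 and 832 under 25 nM RA and 845 and 899.9 under 1 µM RA, the highest of the 83 genes. Atp5a1, the alpha subunit, followed at a mean of 434 RPKM in DMSO, whereas Atp5c1, the gamma subunit of the rotor stalk, was at 213, Atp5e, epsilon, at 141, and Atp5d, delta, at 93.8. The c subunit of the membrane rotor ring is encoded by 3 genes whose mature proteins are the same. Atp5g3 and Atp5g2 were at 311 and 305 RPKM in DMSO and Atp5g1 at 166, so that all 3 contributed. The 4 peripheral stalk genes spanned 123 (Atp5j, subunit F6) to 230 RPKM (Atp5o, the oligomycin sensitivity conferring protein). Atp5j2, subunit f, at 115 RPKM, was among the lower ones. The lowest in DMSO, Atp5s (2.35 RPKM) and Atp5sl (13.9 RPKM), carry the Atp5 prefix but encode proteins that are not counted among the subunits of ATP synthase.

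In complex I the levels of the core subunits Ndufs1, Ndufs3, Ndufs7, Ndufs8, Ndufv1 and Ndufv2 lay in a narrow band, from 55.5 to 74.4 RPKM in DMSO. Core subunits carry the flavin and the iron-sulfur clusters or lie beside them. Ndufa4, which is now usually counted with complex IV although its name places it in complex I, was the highest at 257 RPKM, followed by Ndufa7 at 179 and Ndufb8 at 149. At the low end stood Ndufa11 at 17.98 RPKM, Ndufa4l2, a paralogue of Ndufa4 known to rise in hypoxia, at 2.26, and Ndufs5 at 0.590. Ndufs5 is a subunit on the intermembrane space side of complex I, and its listed level depended on how reads were divided, as given below.

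Complex II genes were even, from Sdhc at 61.5 RPKM, one of the 2 membrane anchors, over Sdhb and Sdha at 74.7 and 77.2, to Sdhd, the other anchor, at 98.5. In complex III, Uqcrh, the hinge protein beside cytochrome c1, was highest at 240.1 RPKM, followed by Uqcr11 at 190 and Uqcr10 at 161. Uqcrc2, a core protein, Uqcrq and Uqcrfs1, the Rieske iron-sulfur protein, were lowest at 89.5, 91.3 and 95.3 RPKM. In complex IV, Cox8a at 316 RPKM, Cox4i1 at 307 and Cox6b1 at 247 led.

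The paralogues of complex IV were unequal. Cox4i1 was at 304 and 311 RPKM in DMSO, and Cox4i2, the lung form, at 0.134 and 0.358. Cox6a1 was at 144 RPKM, whereas Cox6a2, the heart and muscle form, was at 0.0589 and 0.0359 RPKM in DMSO and was listed at 0 in 1 sample with 1 µM RA, where a count of 0 allows up to 0.105 RPKM. Cox8a was at 316 RPKM. Cox8b, also of heart and muscle, was at 0.161 and 0.195 in DMSO and at 0 in both samples with 25 nM RA. The limits there are 0.215 and 0.171 RPKM, near the DMSO values, so that these levels alone do not show a difference. The DMSO values rest on 3 estimated counts in each sample. With no filter on low counts Cox8b was called lower at 25 nM RA, a call that rests on these few counts. Cox7b was at 115 RPKM and Cox7b2, a testis form, at 0.0832. These 4 minor forms (Cox4i2, Cox6a2, Cox7b2, Cox8b) were the ones that did not pass the filter on low counts. Some were not as low: Cox6b2, the testis form, was at 12.04 RPKM beside Cox6b1 at 247, and Cox7a1, the heart and muscle form, at 3.29 beside Cox7a2 at 138 and Cox7a2l, a related factor of supercomplexes, at 150. The limits given for values of 0 cover counting error only.

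**Figure D3:**
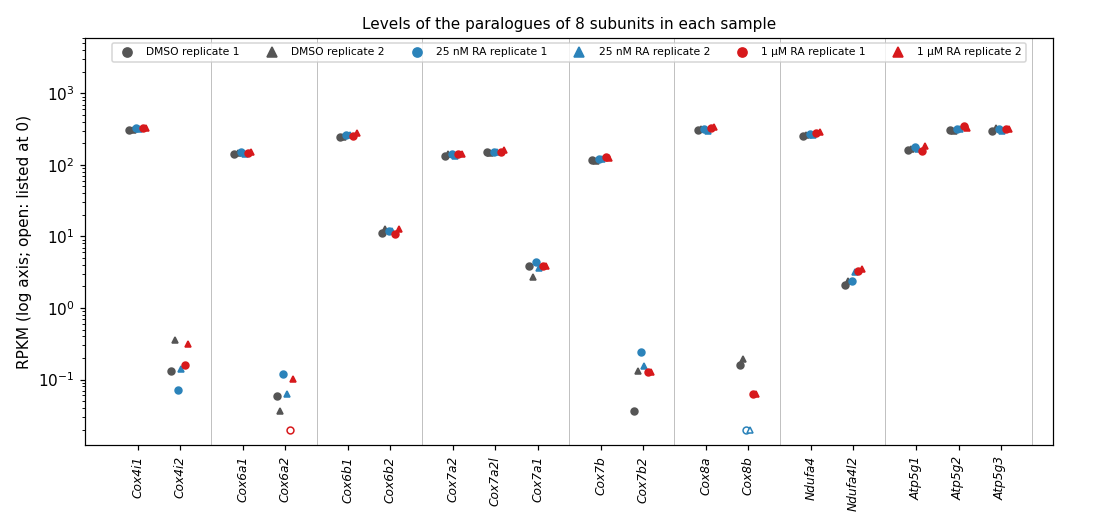
RPKM (log axis) of paralogues of 8 subunits in each of the 6 samples, with open points for samples listed at 0, drawn at the foot of the axis. In the complex IV families a single form lies above 100 RPKM apart from Cox7a2 and Cox7a2l, which lie side by side, and the 3 Atp5g genes all lie above 150 RPKM.

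The comparison with 25 nM RA asks whether the lower dose changed these genes within 2 h. Of the 79 genes that passed the filter, 2 were called higher and 0 lower at an adjusted p under 0.1 (edgeR likelihood ratio test, Benjamini-Hochberg over the 15143 genes tested), or 2.53%, beside 4.5% of all genes tested called higher and 3.55% called lower. At an unadjusted p under 0.05 there were 5 higher and 0 lower. The share of all genes under that unadjusted threshold is not given, here or for the other comparisons and the transcripts. These unadjusted counts therefore have no background beside them. DESeq2 called 0 in either direction, with 3 higher and 0 lower at an unadjusted p under 0.05, and the quasi-likelihood test of edgeR called the same number as the main test in each direction. The genes called were Ndufs5 and Atp5k. Atp5k, subunit e, which links ATP synthase dimers, was at 256 and 263 RPKM in DMSO, 289 and 297 under 25 nM RA and 307 and 276 under 1 µM RA. All 4 RA-treated samples lay above both DMSO samples. Its change on the log2 scale was 0.17 (SE 0.059, adjusted p = 0.0582 by the edgeR likelihood ratio test) at 25 nM RA and 0.16 (SE 0.059, adjusted p = 0.0445) at 1 µM RA. Over the alternatives the adjusted p at 25 nM RA ranged from 0.00860 to 0.468, and it missed the threshold in 5 of 14.

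Over the 79 genes the median log2 fold change at 25 nM RA was 0.041, compared with -0.0005 over all genes tested, and 60 of 79 (75.9%) were above 0, compared with 49.8% of all genes. Both 25 nM RA samples lay above both DMSO samples for 39 genes (49.4%), compared with 23.6% of all genes. These shifts are small. Over all 1670 tested genes of at least 40 RPKM in DMSO the median was 0.021 and 64.9% were above 0.

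At 1 µM RA, 16 of the 79 genes were called higher and 1 lower. The share called higher, 20.3%, stands beside 8.54% of all genes tested, and the share called lower beside 11.2%. Among all 1670 tested genes of at least 40 RPKM, 14.9% were called higher, and among the 1226 tested genes with a transcript under 1000 bases 11% were. The median log2 fold change over the 79 was 0.067, compared with 0.0013 over all genes tested, 0.054 over those of at least 40 RPKM and 0.047 over those under 1000 bases. Of the 79 genes, 72 (91.1%) were above 0, compared with 50.3% of all genes tested and 75.6% of those of at least 40 RPKM. Both 1 µM RA samples lay above both DMSO samples for 42 genes (53.2%, compared with 29% of all genes). The fold changes were small, between 0.11 and 0.21 on the log2 scale for 15 of the genes called higher, with Ndufa4l2 alone at 0.58. The count rests on individual samples: it was 3 without DMSO replicate 1, 5 without DMSO replicate 2 and 6 without 1 µM RA replicate 1, and DESeq2 called 8, all higher.

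**Figure D4:**
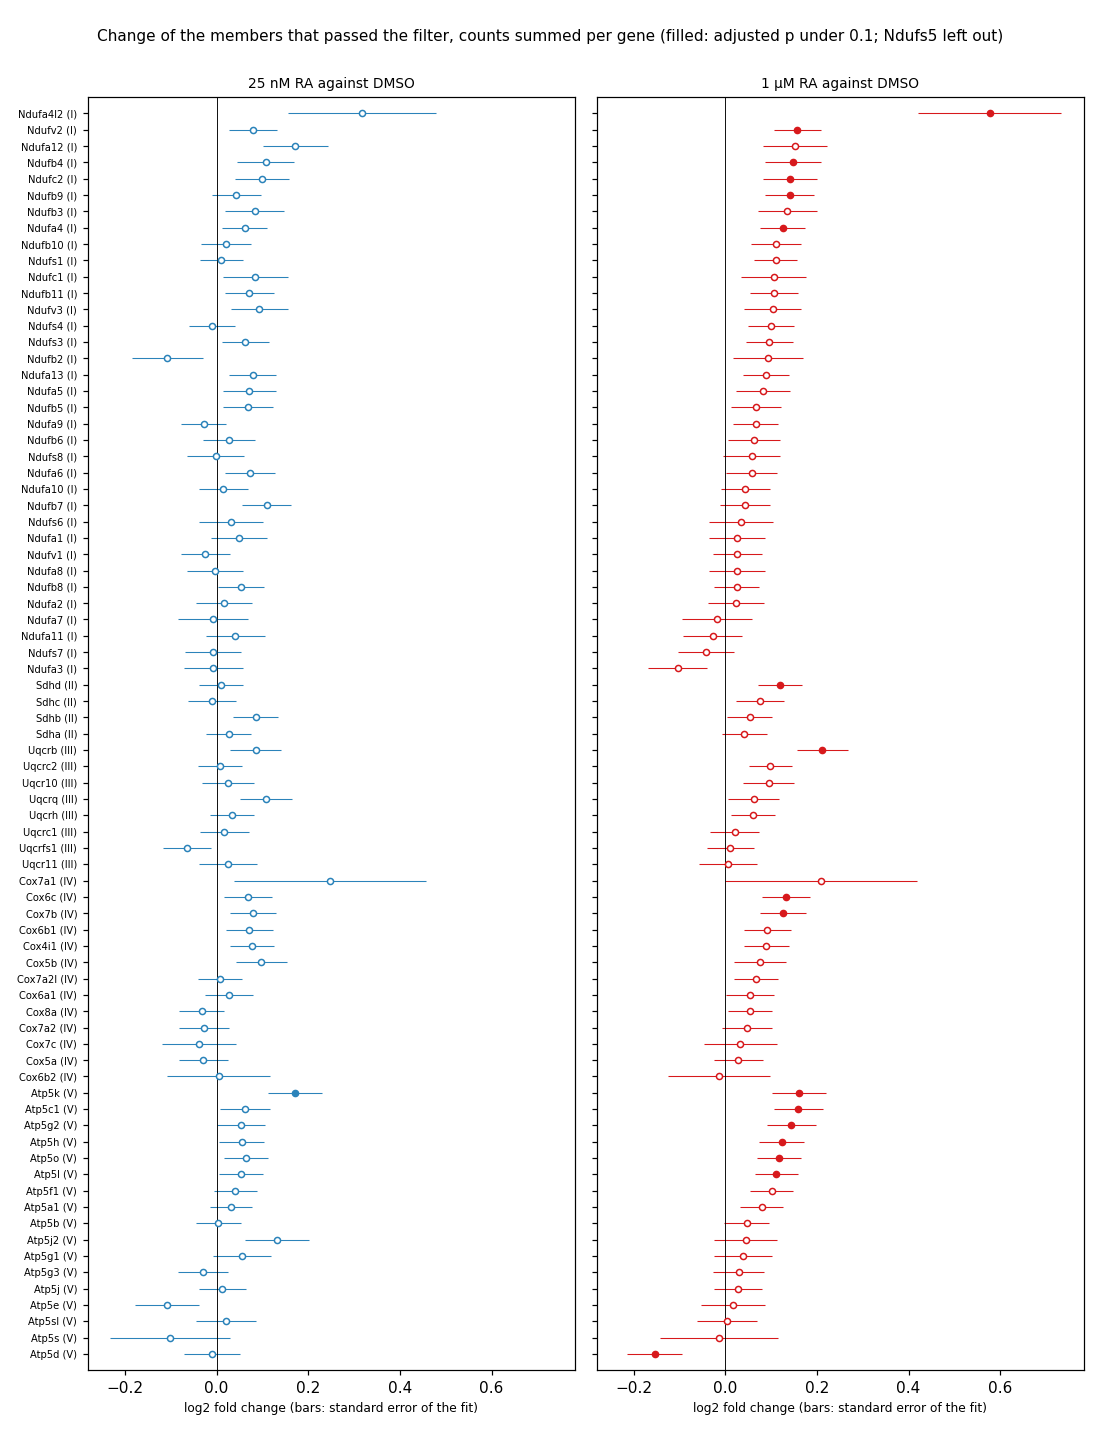
Log2 fold change of genes that passed the filter (Ndufs5 is left out, since its value at 25 nM RA would stretch the axis) at each RA dose, both set against the same DMSO samples, with bars for the standard error of the fit and filled points for an adjusted p under 0.1. Most points of both panels lie just above 0, and Atp5d is the filled point below 0.

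In complex I, 6 of 37 genes (16.2%) were called higher at 1 µM RA and 0 lower. Of all genes tested 8.54% were called higher, and of those of at least 40 RPKM 14.9%. At an unadjusted p under 0.05 by the edgeR likelihood ratio test, 24 of the 79 genes were higher and 1, Atp5d of complex V, was lower, and DESeq2 gave 22 and 1. No share of all genes stands beside these unadjusted counts. Ndufv2, the core subunit that carries the first iron-sulfur cluster beside the flavin, was at 69.6 and 67.1 RPKM in DMSO, 72.1 and 72.7 under 25 nM RA and 73.6 and 79.5 under 1 µM RA. In RPKM its samples were thus ordered by dose without overlap, though 72.7 and 73.6 lay close. Whether the order holds as a share of the estimated counts was not examined. The change of Ndufv2 at 1 µM RA, tested on the estimated counts, was 0.16 (SE 0.052, adjusted p = 0.0203 by the edgeR likelihood ratio test). Ndufa4 was at 255 and 259 RPKM in DMSO and 277 and 286 at 1 µM RA, a log2 fold change of 0.13 (SE 0.049, adjusted p = 0.0629). Ndufb9 and Ndufb4, accessory subunits of the membrane arm, were higher by 0.14 (SE 0.054) and 0.15 (SE 0.061). Ndufb9 was at 107 and 105 RPKM in DMSO and 122 and 113 at 1 µM RA, and Ndufb4 at 90.3 and 86.8 and at 103 and 94.6, both without overlap. Ndufc2, another membrane arm subunit, was called at 0.14, and it is named here after its value was seen. Of 14 alternatives, Ndufc2 missed the threshold in 8, Ndufb4 in 7, Ndufa4 in 6, Ndufb9 in 5 and Ndufv2 in 2.

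Ndufa4l2 had the largest change of the genes called at 1 µM RA. It was at 2.12 and 2.40 RPKM in DMSO, 2.40 and 3.15 under 25 nM RA and 3.25 and 3.49 under 1 µM RA. The 1 µM RA samples lay above all others, while the 25 nM RA samples overlapped with DMSO. The call at 1 µM RA missed the threshold in 2 of 14 alternatives. The log2 fold change was 0.58 (SE 0.16, adjusted p = 0.00263 by the edgeR likelihood ratio test) at 1 µM RA and 0.32 (SE 0.16, adjusted p = 0.332) at 25 nM RA. The gene overlaps Shmt2 on the opposite strand; the kit keeps strand, but whether the counting used it is not given in the sources used here. Shmt2 was at a mean of 35.5 RPKM in DMSO and 34.3 at 1 µM RA, with a log2 fold change of -0.06 (SE 0.050, adjusted p = 0.503).

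Among complexes II to IV, 4 of 25 tested genes were called higher at 1 µM RA, beside 8.54% of all genes tested and 14.9% of those of at least 40 RPKM. Uqcrb, the ubiquinone-binding protein of complex III, had the smallest adjusted p of the 79. It was at 149 and 141 RPKM in DMSO, 156 and 152 under 25 nM RA and 175 and 162 under 1 µM RA, ordered by dose without overlap, with a log2 fold change at 1 µM RA of 0.21 (SE 0.056, adjusted p = 0.00192 by the edgeR likelihood ratio test). Over the alternatives its adjusted p ranged from 9.68e-05 to 0.109 and missed the threshold in 1 of 14. Sdhd was at 98.04 and 99.01 RPKM in DMSO, 99.5 and 99.5 under 25 nM RA and 107 and 108 under 1 µM RA, a change of 0.12 (SE 0.048). Cox6c and Cox7b, small subunits around the complex IV core, were higher by 0.13 (SE 0.052) and 0.13 (SE 0.051), with Cox6c at 183 and 188 RPKM in DMSO and 209.9 and 199.6 at 1 µM RA. Of 14 alternatives, Sdhd and Cox7b each missed the threshold in 8 and Cox6c in 6.

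In complex V, 6 of 17 genes (35.3%) were called higher at 1 µM RA and 1 lower. Of all genes tested 8.54% were called higher and 11.2% lower, and of those of at least 40 RPKM 14.9% higher. The called genes of complex V came from each part of the enzyme. Atp5c1 of the rotor stalk was at 216 and 210.1 RPKM in DMSO, 218 and 229 under 25 nM RA and 248 and 231 under 1 µM RA, a change of 0.16 (SE 0.054, adjusted p = 0.0260 by the edgeR likelihood ratio test). Atp5g2 of the c-ring was at 308 and 303 in DMSO and 353 and 326 at 1 µM RA, a change of 0.14 (SE 0.053, adjusted p = 0.0439), while Atp5g1 and Atp5g3 had values of 0.04 and 0.03 that were not called. Atp5h and Atp5o of the peripheral stalk were higher by 0.12 (SE 0.049) and 0.12 (SE 0.048). Atp5h was at 179 and 182 RPKM in DMSO and 196 and 199 at 1 µM RA, and Atp5o at 229.9 and 229.2 and at 247 and 254. Atp5l, subunit g, was called at an adjusted p of 0.0998 and is named here after its value was seen. Of 14 alternatives, Atp5l missed the threshold in 11, Atp5o in 10, Atp5h in 8, and Atp5c1, Atp5g2 and Atp5k in 3 each. Atp5d alone was called lower, and missed it in 4. It was at 92.9 and 94.7 RPKM in DMSO, 97.2 and 89.9 under 25 nM RA and 79.0 and 90.4 under 1 µM RA, a change of -0.15 (SE 0.061, adjusted p = 0.0653), and the 2 samples with 1 µM RA were far apart. Summed over the 5 genes of the F1 head, the level was 1722 ± 30.9 RPKM (SD, n = 2) in DMSO and 1800 ± 38.9 at 1 µM RA.

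Summed by part of the enzyme, the levels of complex V differed in how far the conditions separated. The 4 peripheral stalk genes summed to 697 and 703 RPKM in DMSO, 733 and 719.8 under 25 nM RA and 749.8 and 763 under 1 µM RA, so that the 3 conditions followed the order of dose without overlap. The 3 other membrane subunits (Atp5j2, Atp5k, Atp5l) summed to 589.8 and 600.2 RPKM in DMSO, 651 and 646 under 25 nM RA and 652 and 648 under 1 µM RA, where both doses lay above DMSO and overlapped with each other. The 3 genes of the c-ring, at 769 and 796 RPKM in DMSO, 814 and 779.8 under 25 nM RA and 831 and 828 under 1 µM RA, separated from DMSO at the higher dose alone. Such separation of summed RPKM at 1 µM RA was not particular to complex V. The 7 core genes of complex I summed to 464.5 and 478.3 RPKM in DMSO and 482.9 and 509.2 with 1 µM RA. Complex II and the 5 genes of complex III outside its core also separated from DMSO at that dose. The 3 core genes of complex III (Uqcrc1, Uqcrc2, Uqcrfs1) summed to 293 and 302 RPKM in DMSO and 301 and 314 with 1 µM RA, which overlapped. The low sums of the 6 tissue-specific complex IV genes and of Atp5s with Atp5sl overlapped as well. These sums are descriptions and carry no test. RPKM implies totals above the summed estimated counts: 51499056 and 42301884 in DMSO, beside 42029348 and 34341789. At 1 µM RA the implied totals were 43403144 and 43960376, beside 35923229 and 36589558. The sums were not repeated on the scale of the estimated counts, where small separations, such as that of the complex I core, may not hold.

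The doses were also compared directly. Of the 79 genes, 0 were called higher and 1, Ndufs5, lower at 1 µM RA than at 25 nM RA, beside 0.792% and 2.62% of all genes tested. At an unadjusted p under 0.05 there were 5 higher and 2 lower with the edgeR likelihood ratio test, and DESeq2 called 0, with 6 higher and 2 lower at an unadjusted p under 0.05. The median log2 difference was 0.034, and 72.2% of the genes were above 0, compared with 0.0003 and 50.1% over all genes tested and with 0.033 and 70.9% over those of at least 40 RPKM. None of the genes called at 1 µM RA and not at 25 nM RA was thus shown to differ between the doses, and both doses share the DMSO samples.

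Ndufs5 is the member with the largest log2 fold change, and its value depended on how reads were divided. It was at 0.617 and 0.563 RPKM in DMSO, 1.67 and 1.61 under 25 nM RA and 0.792 and 0.671 under 1 µM RA. Its change at 25 nM RA was 1.48 on the log2 scale (SE 0.33, adjusted p = 6.76e-05 by the edgeR likelihood ratio test) and that at 1 µM RA 0.33 (SE 0.38, adjusted p = 0.628), and the difference between the doses was -1.15 (SE 0.31, adjusted p = 0.00940). These values rest on 16.2 and 12.1 estimated counts in DMSO, 32.7 and 39.7 under 25 nM RA and 17.5 and 15 under 1 µM RA. The level given to the Ndufs5 row is far below that of the other complex I genes, apart from Ndufa4l2, at a mean of 17.98 RPKM or more in DMSO.

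The files list a second transcript at the same place. The Ndufs5 transcript lies on the minus strand at chr4:123712710-123718187 (mm10), and the transcript listed for BC002163, a processed pseudogene of Ndufs5, at chr4:123712710-123718162. The BC002163 transcript received 191 and 143 estimated counts in DMSO, 141 and 222 under 25 nM RA and 207 and 177 under 1 µM RA, and a further row of that gene on chromosome 16 received between 271 and 354. The 2 rows at the Ndufs5 place together give whole numbers: 207 and 155 in DMSO, 174 and 262 under 25 nM RA, and 224 and 192 under 1 µM RA. Ndufs5 was given 7.815% of that sum in both DMSO samples and in both samples with 1 µM RA, and 18.8% and 15.2% in the samples with 25 nM RA. With the 2 rows joined, an alternative chosen after seeing the data, the joined change was 0.37 on the log2 scale under 25 nM RA (SE 0.13, adjusted p = 0.0573 by the edgeR likelihood ratio test, between 0.0180 and 0.735 over its alternatives) and 0.30 at 1 µM RA (SE 0.13, adjusted p = 0.106, between 0.0364 and 0.607), and the difference between the doses was -0.07 (adjusted p = 0.860). The joined rows were at 8.27 and 7.54 RPKM in DMSO, 9.26 and 11.1 under 25 nM RA and 10.6 and 8.99 under 1 µM RA. The RA-treated samples were above both DMSO samples. With the chromosome 16 row added as well, the 3 rows summed to 21.67 and 20.35 RPKM in DMSO. How much of this sum comes from Ndufs5 was not tested, so that the low level of its row is not shown to be that of the gene.

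**Figure D5:**
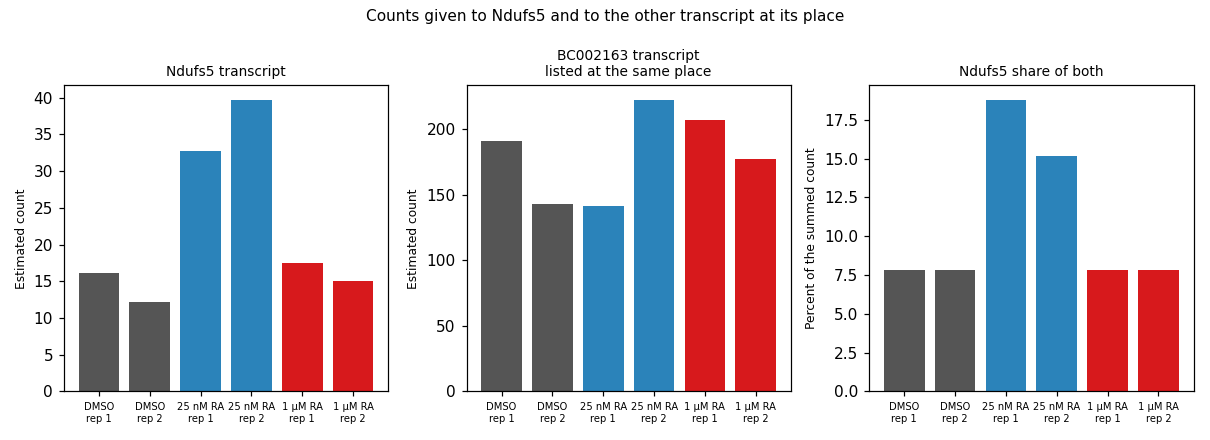
Estimated counts given to the Ndufs5 transcript, to the BC002163 transcript at the same place, and the percent of their sum given to Ndufs5, in each of the 6 samples. The share is the same in the 4 samples without 25 nM RA and higher in both samples with it.

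Sequence shared with other genes reaches beyond Ndufs5. In GENCODE M21 transcripts, 196 of the 476 windows of 50 bases (the read length) of Ndufs5, or 41.2%, also occur in BC002163. Of the 83 genes, 46 share no such window with another gene and 37 share some, with 15 over 20%, mostly with processed pseudogenes. Among the genes called at 1 µM RA, the share was 87.4% for Atp5g2, 68.5% for Atp5l, 50.5% for Atp5h, 43.2% for Uqcrb, 37% for Ndufb4, 35.5% for Atp5o, 23.4% for Ndufb9 and 21.1% for Cox6c. Not all partners were processed pseudogenes. Of the 280 shared windows of Atp5o, 194 were in a second entry also named Atp5o. All 153 of Ndufb9 were in Gm49356, listed as a transcript subject to nonsense-mediated decay. The levels of the called genes listed here are uncertain to the extent that the authors' estimation moved reads between such entries.

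Single transcripts were tested as well, since 16 of the genes have several. Of the 104 transcripts tested among the 112 of these genes, 2 were called under 25 nM RA and 4 under 1 µM RA, all higher, beside 3.69% and 8.3% of the 22074 transcripts tested. Between the doses 0 were called, beside 1.8%, with 6 at an unadjusted p under 0.05 by the edgeR likelihood ratio test, and 0 by DESeq2 with 2. The quasi-likelihood test called 0 in each of the 3 comparisons, with 6, 26 and 7 at an unadjusted p under 0.05. On simulated data for 25 nM RA against DMSO, 93 of the 191 transcripts called by the likelihood ratio test were unchanged. The transcript calls are therefore weaker than their adjusted p states. The transcripts called at 25 nM RA were that of Ndufs5 and NM_001301722 of Atp5g3. The latter received 74.2 and 37.4 estimated counts in DMSO, 105 and 206 under 25 nM RA and 189 and 102 under 1 µM RA, which was between 0.379% and 2.01% of the counts of the gene. Its log2 fold change was 1.59 (SE 0.46, adjusted p = 0.0278 by the edgeR likelihood ratio test) at 25 nM RA and 1.52 (SE 0.46, adjusted p = 0.0243) at 1 µM RA, while the 2 main transcripts of Atp5g3 and the gene as a whole were not called. At 1 µM RA the single transcript of Uqcrb, the main transcript NM_028388 of Ndufv2 and NM_001302215 of Atp5j were also called. That of Atp5j took 53.7% and 53.4% of the counts of its gene in DMSO and 58.3% and 65.6% at 1 µM RA, with a log2 fold change of 0.24 (SE 0.085, adjusted p = 0.0711), whereas the gene as a whole had 0.03.

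Promoters are shown for some of the genes named above. Binding sites of NRF1, of ETS factors such as GABP, and of YY1 are known features of promoters of nuclear respiratory genes, and RA receptors bind paired AGGTCA half-sites. RefSeq promoters (250 bases before to 50 after the start, GRCm38.p6) matched 65 of the 83 genes. In the sequences below, 5′ to 3′ on the strand of the gene, capitals mark exact matches on either strand to GCGCATGC (the NRF1 core), CCGGAAG (the ETS core) or AAGATGGC (the YY1 core), and a run of 10 capitals is a pair of overlapping NRF1 matches, 1 per strand. Atp5k was called at both doses, Atp5g2 and Sdhd at 1 µM RA, Atp5j through a transcript, and Ndufs5 holds none of the 3 cores. Among genes called at 1 µM RA and not shown, Atp5c1, Atp5d, Atp5o, Cox7b, Ndufa4, Ndufb4, Ndufc2 and Ndufv2 also held none of them. Atp5h, likewise called and not shown, held an ETS core, and Atp5l held both an NRF1 and an ETS core.
Atp5k, chr5:108434350-108434649, minus strand: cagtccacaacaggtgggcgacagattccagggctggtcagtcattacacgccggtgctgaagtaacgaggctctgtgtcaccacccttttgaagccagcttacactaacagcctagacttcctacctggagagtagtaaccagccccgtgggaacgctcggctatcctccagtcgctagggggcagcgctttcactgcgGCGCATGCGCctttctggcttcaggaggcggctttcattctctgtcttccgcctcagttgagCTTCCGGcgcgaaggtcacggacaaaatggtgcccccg
Atp5g2, chr15:102670998-102671297, minus strand: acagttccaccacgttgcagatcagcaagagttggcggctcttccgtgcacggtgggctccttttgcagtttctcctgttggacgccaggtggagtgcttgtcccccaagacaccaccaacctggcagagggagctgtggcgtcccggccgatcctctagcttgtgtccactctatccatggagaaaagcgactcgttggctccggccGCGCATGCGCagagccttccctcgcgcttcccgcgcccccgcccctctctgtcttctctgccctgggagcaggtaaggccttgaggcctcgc
Sdhd, chr9:50603800-50604099, minus strand: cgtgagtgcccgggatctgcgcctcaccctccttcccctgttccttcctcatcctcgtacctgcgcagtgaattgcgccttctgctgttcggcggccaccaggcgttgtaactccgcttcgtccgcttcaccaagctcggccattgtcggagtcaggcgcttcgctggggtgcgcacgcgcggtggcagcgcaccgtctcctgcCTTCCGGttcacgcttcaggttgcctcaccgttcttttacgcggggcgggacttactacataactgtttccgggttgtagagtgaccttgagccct
Atp5j, chr16:84834927-84835226, minus strand: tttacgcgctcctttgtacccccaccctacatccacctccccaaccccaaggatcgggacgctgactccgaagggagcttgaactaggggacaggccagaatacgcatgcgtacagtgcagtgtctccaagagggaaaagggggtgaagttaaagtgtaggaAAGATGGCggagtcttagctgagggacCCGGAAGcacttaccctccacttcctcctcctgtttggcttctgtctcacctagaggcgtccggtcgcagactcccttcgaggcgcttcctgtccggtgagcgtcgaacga
Ndufs5, chr4:123718137-123718436, minus strand: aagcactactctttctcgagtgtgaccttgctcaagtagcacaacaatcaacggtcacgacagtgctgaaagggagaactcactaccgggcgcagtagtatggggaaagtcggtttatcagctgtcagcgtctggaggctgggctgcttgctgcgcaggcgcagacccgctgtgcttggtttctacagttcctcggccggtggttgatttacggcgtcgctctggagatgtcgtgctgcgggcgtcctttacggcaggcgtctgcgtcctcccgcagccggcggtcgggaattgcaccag

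The NRF1 core was in 10 of the 65 promoters (15.4%), compared with 5.22% of the 11100 promoters of all genes tested. The ETS core was in 16 (24.6%, compared with 17.4%) and the YY1 core in 10 (15.4%, compared with 4.46%). The promoters of Atp5k, Atp5l, Cox6a1, Sdhb and Uqcr11 held both an NRF1 and an ETS core. A single AGGTCA half-site was in 15 (23.1%, compared with 11.9%), including Atp5k, Sdhd and Ndufs5. Such a half-site alone is not the pair that RA receptors bind. Pairs of exact AGGTCA half-sites in the same direction 5 bases apart were in 0 of the 65 and in 0 of the 11100. Since none was found in any tested promoter, this search cannot tell these genes from others. Variant half-sites and the shorter spacer that the paper also reports were not searched. Median GC content was 57.0% in these promoters and 61.0% in all. A match is a stretch of letters and not a measured site, and no binding data were part of the files.

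Genes that work with these subunits were counted from lists, beside 4.5% of all genes tested called higher at 25 nM RA and 8.54% at 1 µM RA, and 14.9% at 1 µM RA among genes of at least 40 RPKM. Of 46 tested assembly factors, which build the complexes, 1 was called higher under 25 nM RA and 4 under 1 µM RA, with 0 lower (2.17% and 8.7%, below and near the shares of all genes). They were Coa7, at 0.21 and 0.26 for the 2 doses, and at 1 µM RA also Nubpl at 0.23, Cox17 at 0.20 and Ecsit at 0.18. Of 8 tested chain components that the symbol rule misses, 1 and 3 were called higher (12.5% and 37.5%), among them Cycs, cytochrome c, at 0.12 and Usmg5, a small ATP synthase subunit, at 0.15 at 1 µM RA, and Etfdh, which feeds electrons from fatty acid oxidation to ubiquinone, at 0.19 and 0.21. Of 17 genes of the tricarboxylic acid cycle and pyruvate dehydrogenase, 0 and 1 (Suclg2, at 0.12) were called higher. Of 15 glycolysis genes, 2 and 7 were called higher (13.3% and 46.7%) and 0 lower, with Slc2a1, the glucose transporter, at 0.35 and 0.34, Hk2, hexokinase, at 0.18 and 0.19, and at 1 µM RA Pgk1 at 0.30 and Tpi1 at 0.22. Of 11 tested regulators of mitochondrial gene expression, Esrra, a nuclear receptor that acts on respiratory genes, was called higher at both doses, by 0.44 and 0.37, and Tfam, which packages mitochondrial DNA, by 0.14 at 1 µM RA. Pprc1 and Ppargc1b, coactivators of the same programme, were called lower at 1 µM RA, at -0.37 and -0.34. Nrf1, Gabpa and Yy1 had values between -0.02 and 0.11 at either dose and were not called.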

How the data were processed

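RNA-seq of 6 samples was used, grouped by their GEO labels (DMSO, 25 nM RA, 1 µM RA; 2 each). Per the submitters' processing notes the tools were FastQC 0.11, Bowtie2 2.2.5.0, TopHat2 2.0.13 and Partek 6.6, with mm10; 50-base single-end reads were aligned and transcript abundance was estimated by expectation-maximization. The authors deposited estimated counts per RefSeq transcript, not normalized and often not whole, with RPKM values, which the authors scaled to transcript length and sequencing depth, and transcript lengths. Whether the counting used strand is not given in the sources used here.

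Estimated counts and RPKM were summed per gene symbol, and the rounded estimated counts entered an edgeR 4.0.16 model (R 4.3.3) with TMM, filterByExpr, 1 coefficient per condition over all 6 samples and the likelihood ratio test. The Benjamini-Hochberg adjustment ran over the 15143 genes tested (22074 for transcripts), and an adjusted p under 0.1 was called. Errors are SDs of 2 samples or standard errors of the fit, and intervals and limits cover counting error only. The members and lists were chosen with earlier results of these data known, so that no test over a list was made.

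Genes named were those called (at most 15 per comparison, and 10 for transcripts), Ndufs5, the 3 highest and 3 lowest tested genes of each complex in DMSO, the paralogue families Cox4i, Cox6a, Cox6b, Cox7a, Cox7b, Cox8, Ndufa4 and Atp5g, genes under 0.1 RPKM, up to 5 called genes of each other list, and the genes that check the labels. Alternatives tried were DESeq2 1.42.0, the quasi-likelihood test of edgeR, other scalings and filters, a fit of the 4 samples of a comparison alone, a replicate block, a threshold of 0.05, and leaving out each sample. On simulated data for 25 nM RA against DMSO, run on 15143 genes, the test called 86 of 100 genes changed 2-fold, 62 of 100 changed 1.25-fold and 22 unchanged genes. At the transcript level, run on 22074, it called 66 of 100, 32 of 100 and 93 unchanged transcripts. Python 3.11.15, pandas 2.3.3, scipy 1.17.1 and matplotlib 3.10.9 were used for tables and figures. Results for some genes are not reported here.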

Additional observations from a re-analysis of the deposited data

Results flagged for a closer look

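Ndufs5 differed between the doses by a direct test: its log2 fold change at 1 µM RA minus that at 25 nM RA was -1.152 (SE 0.31, adjusted p = 0.00940 by the edgeR likelihood ratio test), with both 25 nM RA samples above the other 4. With the other transcript row at the same place added, the difference was -0.07 (adjusted p = 0.860). What divided the reads between the 2 rows was not tested.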

How the results depend on the processing

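The number of genes called at 1 µM RA, 17 in the report, was 8 with DESeq2, 7 with total counts in place of TMM, 8 with no filter on low counts, 6 at an adjusted p under 0.05, and between 3 and 15 when single samples were left out (3 without DMSO replicate 1, 5 without DMSO replicate 2, 6 without 1 µM RA replicate 1). At 25 nM RA, 2 in the report, it was 0 with DESeq2, 1 at an adjusted p under 0.05, and between 1 and 3 when single samples were left out (1 without DMSO replicate 2, 25 nM RA replicate 1 or 25 nM RA replicate 2). A gene called lower appeared at that dose in 2 settings: Cox8b, among 3 called with no filter on low counts, and Ndufb2, named after its value was seen, among 2 called without DMSO replicate 1. Between the doses, 1 in the report, it was 0 with DESeq2, 2 with only the 4 samples compared, and between 0 and 4 when single samples were left out (0 without either 25 nM RA sample, 2 without either DMSO sample, 4 without 1 µM RA replicate 2). For transcripts, with 2, 4 and 0 called in the same order, the quasi-likelihood test gave 0, 0 and 0 and DESeq2 1, 3 and 0, while only the 4 samples gave 4 and 2 in the comparisons with DMSO. Total counts gave 2 transcripts and an adjusted p under 0.05 gave 2 at 1 µM RA, and leaving out single samples gave between 0 and 4, between 0 and 9 and between 0 and 5, with the highest of the latter ranges without 1 µM RA replicate 2. The replicate numbers were shared only as numbers: the deviations of same-numbered samples correlated at -0.066, 0.073 and -0.095. With the replicate block the counts of genes were 2, 13 and 1 and those of transcripts 2, 3 and 0. The quasi-likelihood test of edgeR called more genes at 1 µM RA, 18 higher and 1 lower, beside 16 and 1 with the main test. Of 281 values of single named genes under alternatives, 176 kept their direction and their side of the threshold, 105 kept their direction and missed it, and 0 turned. With total counts the median over the 79 genes at 1 µM RA was 0.046 beside -0.019 for all genes tested. The cause of these differences was not tested.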
